A study of Homo sapiens with 6 samples.

Results

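The 83 microRNA loci described here are rows of the deposited gene table with the type miRNA, chosen by their counts: 10 or more in at least 3 of the 6 libraries. They were drawn from 3043 miRNA rows among 60461 genes. Of the other 2960 rows, 2257 had no count in any library and 703 had counts but did not reach the rule. The libraries came from MDA-MB-231 cells, a line derived from triple-negative breast cancer, transduced with adenovirus at a multiplicity of infection of 200 and lysed 48 h later, after a change of medium at 16 h. In 3 libraries the virus carried the coding sequence of ADARp110, the shorter and mainly nuclear form of the RNA editing enzyme ADAR1, and in the other 3 it carried eGFP. All 6 libraries were therefore made from virus-treated cells, and untransduced cells were not analysed here. The titles call the replicates biological without saying how cultures were kept apart, and p-values cover only the variation among these libraries. In bulk RNA, fewer cells with a transcript and less of it per cell cannot be told apart.

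MicroRNA genes are transcribed as long primary transcripts, or lie in the introns or exons of a host gene. In the nucleus the Microprocessor, made of DROSHA and DGCR8, cuts out a hairpin, which DICER1 trims in the cytoplasm to the short mature microRNA that guides Argonaute proteins to messenger RNAs, mainly through its seed at bases 2 to 8. ADAR1 binds double-stranded RNA, primary microRNA hairpins among it, and turns adenosine into inosine. Total RNA libraries of this kind are made from fragments longer than a mature microRNA, so counts at these loci come mainly from primary transcripts, host introns or exons. The levels below are levels of reads over the locus, not of mature microRNAs, and neither editing nor cleavage was measured.

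Mature sequences are shown for the loci that changed, for loci that share a seed with them or with each other, and for MIR25, a cluster partner of such loci. RefSeq entries, on build GRCh38.p14, matched 56 of the 83 loci by symbol, and 52 of these had a hairpin entry. That hairpin was letter for letter the hg19 interval of the deposited table for 48 loci, it or the interval lay within the other for 3, and it was different for 1, MIR3191. Capitals mark the seed. MIR23A and MIR27A, the pair with changed counts, give these arms.
hsa-miR-23a-5p: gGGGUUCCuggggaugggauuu
hsa-miR-23a-3p: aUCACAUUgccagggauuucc
hsa-miR-27a-5p: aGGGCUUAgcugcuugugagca
hsa-miR-27a-3p: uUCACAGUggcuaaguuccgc
The seed UCACAGU of miR-27a-3p is shared with the product of MIR27B on chromosome 9, and the mature sequences differ by C19U, counted from the 5′ end with the miR-27a base first.
hsa-miR-27b-3p: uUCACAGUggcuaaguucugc
The seed GAGGUAG is shared by 4 loci of the let-7 family, MIRLET7A1, MIRLET7A2, MIRLET7D and MIRLET7I, whose products restrain RAS and HMGA2.
hsa-let-7a-5p: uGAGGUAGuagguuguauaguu
hsa-let-7d-5p: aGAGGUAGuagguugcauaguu
hsa-let-7i-5p: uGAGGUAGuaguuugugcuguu
The seed AAAGUGC is shared by MIR93 and MIR106B. They lie in the gene MCM7 with MIR25, whose seed AUUGCAC no other matched locus has.
hsa-miR-93-5p: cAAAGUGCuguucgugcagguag
hsa-miR-106b-5p: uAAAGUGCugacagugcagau
hsa-miR-25-3p: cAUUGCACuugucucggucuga
No other seed was shared among the matched loci. MIR33B is shown as an example of a locus whose host gene changed, and other such loci with a matched sequence are not shown.
hsa-miR-33b-5p: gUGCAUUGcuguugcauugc

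Library totals ran from 72741235 to 99589278 counts, at which a count of 0 allows up to 0.0304 to 0.0414 CPM (counts relative to the TMM-scaled library total), a limit of counting error only. ADAR, the overexpressed gene, averaged 1006 ± 13.2 CPM with ADAR1 p110, against 267 ± 8.67 CPM with GFP (SD, n = 3 each). ADAR1 p110 replicate 1 and GFP replicate 2 stood apart from the other 4 libraries on the second principal component, which carried 21.8% of the variance. Of the MDA-MB-231 markers, VIM averaged 2179 CPM with ADAR1 p110 and 1952 CPM with GFP, while SPARC was low at 1.25 and 1.53 CPM. Of 6 luminal markers, the hormone receptor genes ESR1 and PGR stayed under 0.04 CPM in either group's mean, GATA3 had 3.61 and 3.54 CPM, ERBB2 90.1 and 85.8 CPM and KRT19 435 and 372 CPM with ADAR1 p110 and with GFP. The sixth, CDH1, rose to 4.15 CPM with ADAR1 p110, against 2.80 CPM with GFP (edgeR adjusted p = 0.00966). The summed level of 6 leukocyte markers was 3.12 to 3.63 CPM with ADAR1 p110 and 3.56 to 4.67 CPM with GFP, most of it CD14, and CD3E was at 0 in every library. The 7 matched endothelial and fibroblast markers summed to 53.3 to 59.8 CPM with ADAR1 p110 and 60.7 to 64.8 CPM with GFP, led by PDGFRB. Among them KDR fell to 7.39 CPM, against 10.1 CPM with GFP (edgeR adjusted p = 0.00603). The list of microRNAs typical of other cell types had 13 rows in the table, 12 of them at 0 in every library and none among the 83 loci. Of all 3043 miRNA rows 2257 were also at 0 in every library, so this list says little about cell identity.

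Counts at the loci were few and their levels spread widely. The mean CPM of a locus over the 6 libraries ran from 0.0934 to 12.3 with a median of 0.196, 72 of the 83 loci lay under 0.5 CPM, and 40 had at least 10 counts in every library. Length ran from 53 to 180 bases with a median of 84, and levels are also given as mean CPM per kilobase. Counts at loci this short need not grow in proportion to length, so that scale can favour the shortest loci. By mean CPM the order was MIR3687, MIR3648, MIR621, AL662800.1, MIR27A, MIR23A and MIR4292. Per kilobase MIR3687 led with 201, followed by MIR621 with 39.4, MIR3648 with 37.2, AL662800.1 with 33.7, MIR4292 with 19.2, MIR27A with 19 and MIR23A with 18.2. The 53 loci outside the naming rule lay between 0.863 and 6.63. GC content of the matched hairpins ran from 29.8% to 86.4%, with a median of 54%.

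**Figure D1:**
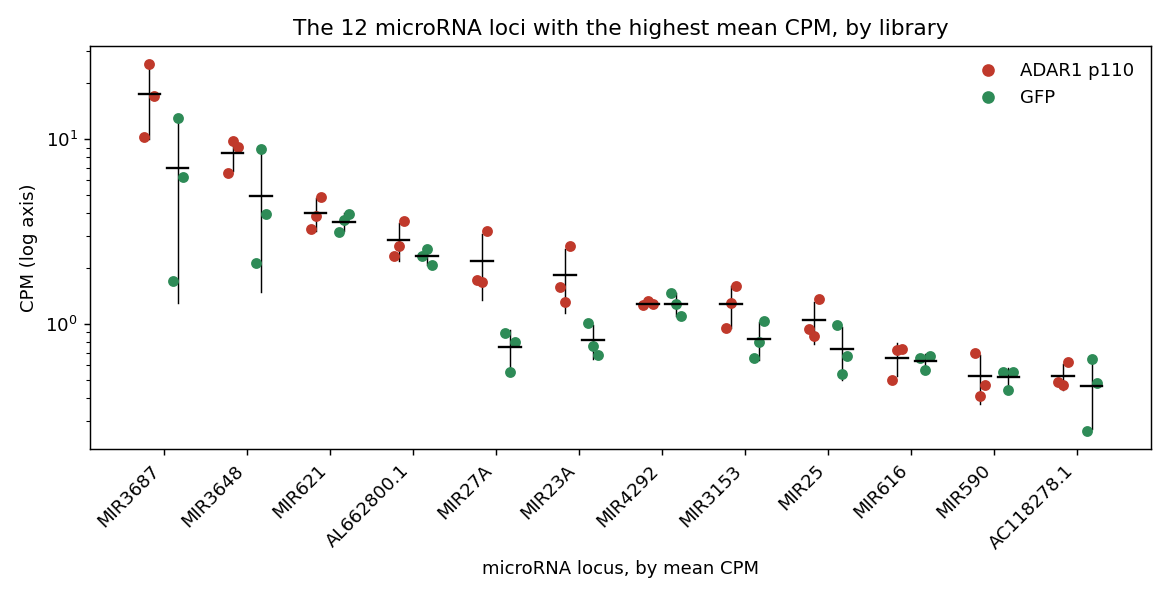
CPM (log axis) of the 12 microRNA loci with the highest mean CPM in each library, with ADAR1 p110 in red left of GFP in green, group means as horizontal bars and SD as vertical lines (n = 3 per group). The groups stand apart at MIR27A and MIR23A and overlap at each of the others, and MIR3687 runs from 1.71 to 13 CPM within the GFP libraries.

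Most of the loci sat inside other genes. In the deposited table, whose coordinates are on hg19, 62 of the 83 lay within the span of a gene on the same strand, 50 of them in a protein-coding gene. A further 6 lay within a gene on the other strand only, and 15 in no other gene. In GENCODE 44 mapped to GRCh37, a later annotation than that of the table, 50 loci were intronic, 19 overlapped an exon of a gene on their strand and 14 did neither. The loci fell on 20 chromosomes, with 11 on chromosome 9 and 8 on chromosome 19. By starts within 10 kb on the same strand, 9 loci formed 4 clusters, namely MIR23A with MIR27A, MIR3648 with MIR3687, MIR25 with MIR93 and MIR106B, and MIRLET7A1 with MIRLET7D.

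Raising ADAR1 p110 was compared with GFP across all 18899 genes that passed the low-count filter, 75 of the 83 loci among them. MIR27A and MIR23A, neighbours on chromosome 19, were higher in the ADAR1 p110 libraries, by 2.90-fold and 2.24-fold, and no other locus passed. These 2 higher loci compare with 1.95% of all tested genes called higher, and no locus was called lower, against 2.96% of all tested genes (edgeR's quasi-likelihood test with adjustment by Benjamini-Hochberg, threshold 0.05). At an unadjusted p under 0.05 there were 6 higher loci and 3 lower ones, or 12% of those tested, against 18.6% of all tested genes (9.21% higher and 9.43% lower). Estimates reached 2-fold at 5 loci upward and 3 downward, against 0.751% and 1.01% of all tested genes. DESeq2 and limma-voom called no locus lower either. DESeq2 gave no adjusted p for AL662890.3, MIR4260 and MIR5188, whose estimates were among the lower ones. It could not have called them, so its lack of lower calls adds no support. The SE of a log2 fold change had a median of 0.42 over the loci and 0.10 over all tested genes, so changes that would be called in an abundant gene were not detectable at most loci. The log2 fold changes of the loci had a median of 0.16, against 0.00 for all tested genes, and 50 of the 75, or 66.7%, were positive, against 51.2% of all tested genes. Since the loci had to reach 10 counts to be tested, this median is a description. At 2 loci every library that reached 10 counts belonged to 1 group, ADAR1 p110 for MIR33B and GFP for MIR491, which was not tested.

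**Figure D2:**
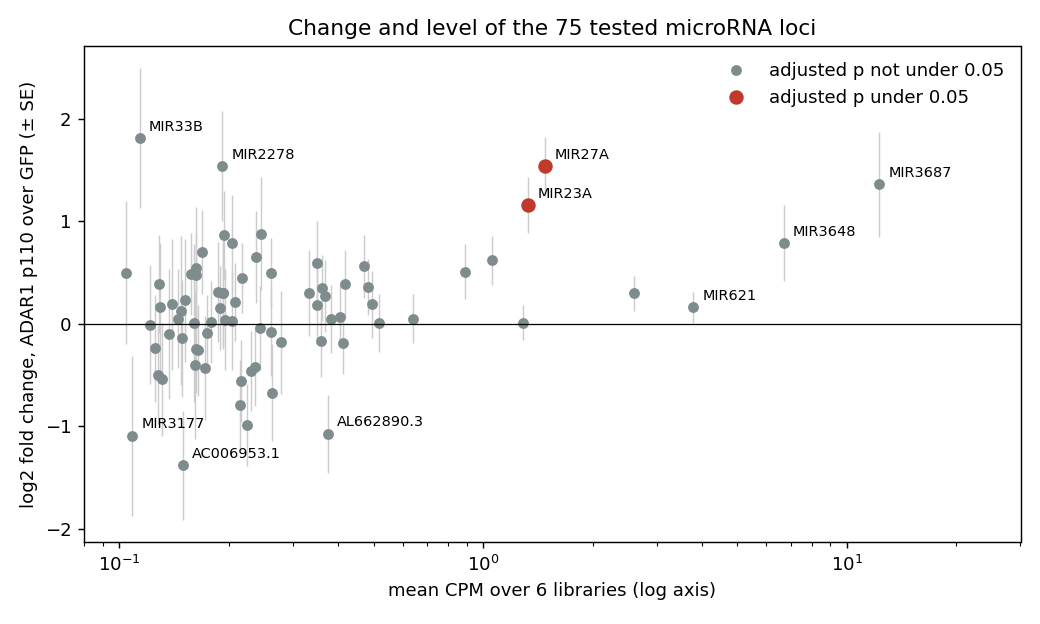
Log2 fold change (ADAR1 p110 over GFP, vertical axis) with its SE against mean CPM on a log axis for the 75 tested microRNA loci, with the called loci in red. MIR27A and MIR23A lie at 1.54 and 1.16, while MIR33B at 1.81, MIR2278 at 1.54 and MIR3687 at 1.36 have larger SE and were not called.

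MIR27A (ENSG00000207808.1, hg19 chromosome 19, 13947254 to 13947331, minus strand) and MIR23A (ENSG00000207980.1, 13947401 to 13947473) belong to a cluster transcribed as 1 primary transcript. Of 7 genes listed for this cluster and its relative on chromosome 9, 5 were matched. MIR24-1 and MIR24-2 were not analysed here. The miR-27 family represses regulators of fat cell formation such as PPARG, and miR-23a and miR-27a are often raised in breast cancer cells. MIR27A had 132, 166 and 247 counts with ADAR1 p110 in replicate order, against 78, 40 and 79 with GFP. These are 1.74, 1.68 and 3.19 CPM with ADAR1 p110 and 0.899, 0.551 and 0.803 CPM with GFP. The groups did not overlap, and ADAR1 p110 replicate 3 was far above the other 2 of its group. The log2 fold change was 1.54 (SE 0.28, edgeR adjusted p = 0.00939).

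MIR23A had 121, 129 and 203 counts with ADAR1 p110, against 88, 55 and 67 with GFP, or 1.59, 1.31 and 2.63 CPM against 1.01, 0.758 and 0.681 CPM. ADAR1 p110 replicate 3 was again the highest library, and the groups did not overlap. Its log2 fold change was 1.16 (SE 0.27, edgeR adjusted p = 0.0331). The call of MIR27A held in each of 14 alternative fits, with adjusted p from 2.94e-13 to 0.0405. That of MIR23A held in 8 of 14, with adjusted p from 4.61e-07 to 0.134. It was lost without ADAR1 p110 replicate 3 (log2 fold change 0.83, adjusted p = 0.116) and without GFP replicate 1 (0.0654), 2 (0.0887) or 3 (0.134). With all libraries kept, it was lost with limma-voom (adjusted p = 0.0565) and in edgeR with a block for replicate number (0.0695). The lowest value of each range came from the fit with no low-count filter. That fit also gave MIR3687, whose groups overlap, an edgeR adjusted p of 3.64e-48, so its small p-values are not taken as stronger evidence. The hairpins lie 69 bases apart, closer than many sequenced fragments are long, so their counts are not independent observations.

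The same strand carries AC020916.1 (ENSG00000267519.5_4, chromosome 19, 13945330 to 13947103), whose 5′ end lies 150 bases downstream of MIR27A. Its Ensembl identifier is that of MIR23AHG, the host transcript of the cluster, in GENCODE 44, where the transcript spans both hairpins. It was chosen for comparison after its values were seen. AC020916.1 had 1953, 2325 and 3125 counts with ADAR1 p110 and 2176, 1169 and 1663 with GFP, or 29.9 ± 9.16 CPM against 19.4 ± 4.96 CPM (SD, n = 3 each). Its groups overlapped once scaled by library, and it did not pass the test (log2 fold change 0.62, SE 0.20, edgeR adjusted p = 0.123). It passed without ADAR1 p110 replicate 1 (adjusted p = 0.0378), with GFP replicate 2 left out as well (0.035) and with no low-count filter (1.21e-13). The last is the fit whose p-value was also extreme at MIR3687.

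The hairpins were set against that neighbour within each library, a ratio free of the scaling between libraries. For every 100 counts of AC020916.1 there were 6.76, 7.14 and 7.90 counts of MIR27A with ADAR1 p110, against 3.58, 3.42 and 4.75 with GFP. The ratio was 1.85 times higher on average with ADAR1 p110, without overlap (two-sided exact permutation p = 0.1, the smallest that 3 against 3 libraries allow). For MIR23A the ratios were 6.20, 5.55 and 6.50 with ADAR1 p110 and 4.04, 4.70 and 4.03 with GFP, 1.43 times higher and again without overlap (exact permutation p = 0.1). Since these loci were picked for their change and the neighbour after its values were seen, the ratios are a description. Of 23 such ratios of a named locus to a host or neighbour, 5 had no overlap between the groups, and the smallest Benjamini-Hochberg adjusted exact permutation p was 0.418. One of the 5 was MIR616 in DDIT3, a locus with no call, with 6.06, 6.14 and 6.09 counts per 100 DDIT3 counts with ADAR1 p110 and 5.45, 5.12 and 5.99 with GFP, 1.10 times higher. MIR27A counts per 100 MIR23A counts were 109, 129 and 122 with ADAR1 p110 and 88.6, 72.7 and 118 with GFP, which overlap.

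On the other strand, ZSWIM4 ends 2285 bases beyond AC020916.1 and was lower with ADAR1 p110, at 4.98 ± 0.648 CPM against 7.19 ± 0.406 CPM (SD, n = 3 each, log2 fold change -0.53, edgeR adjusted p = 0.0163). The cluster's relative on chromosome 9 lies in C9orf3. MIR27B (chromosome 9, 97847727 to 97847823, plus strand) had 14, 22 and 20 counts with ADAR1 p110 and 21, 15 and 13 with GFP, and its libraries overlapped (log2 fold change 0.21, SE 0.38, edgeR adjusted p = 0.839). MIR23B stayed outside the rule, with 2, 7 and 1 counts against 2, 6 and 0. The difference between the changes of MIR27A and MIR27B was not tested.

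**Figure D3:**
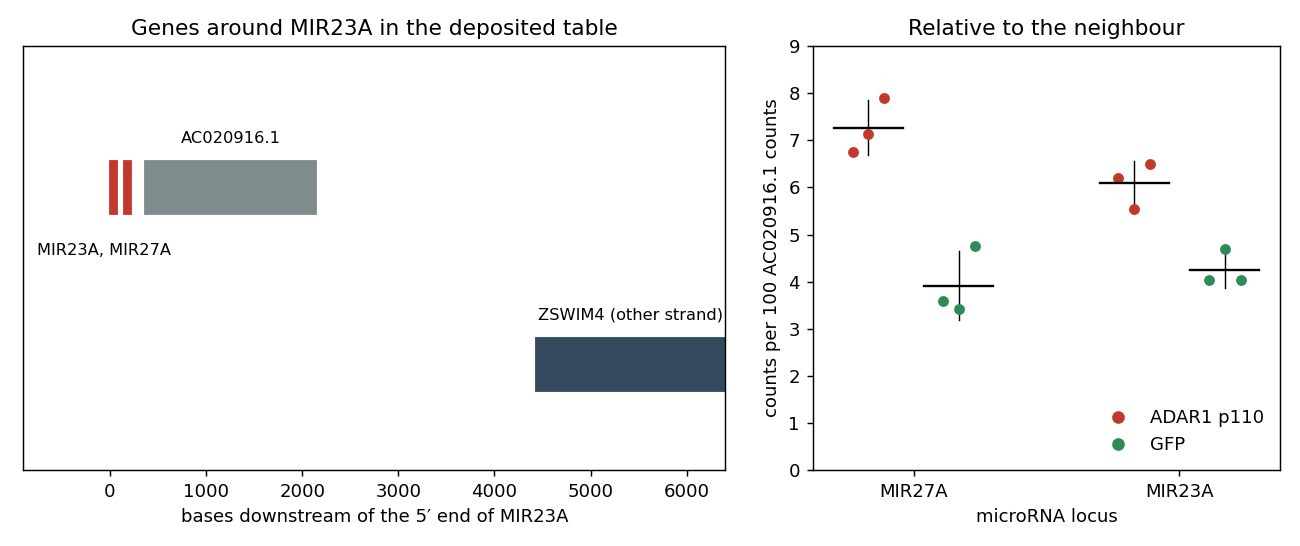
Left, genes of the deposited table around MIR23A by distance in bases downstream of its 5′ end, with the hairpins in red, AC020916.1 in grey and the 3′ end of ZSWIM4, on the other strand, in dark blue. Right, counts of MIR27A and MIR23A per 100 counts of AC020916.1 in each library, with group means and SD (n = 3), where ADAR1 p110 libraries (red) lie between 5.55 and 7.90 and GFP libraries (green) between 3.42 and 4.75.

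MIR3687 (chromosome 21, 9826203 to 9826263, plus strand) and MIR3648 (9825832 to 9826011) were the loci with the most counts, and both are known to match the external spacer of the ribosomal RNA precursor. MIR3687 had 10.3, 25.4 and 17.1 CPM with ADAR1 p110, against 1.71, 13 and 6.23 CPM with GFP. Its groups overlapped, and the highest GFP library held 7.61 times as much as the lowest. MIR3648 had 6.54, 9.73 and 9.04 CPM with ADAR1 p110 and 2.13, 8.81 and 3.92 CPM with GFP, also overlapping. Neither passed the test, with log2 fold changes of 1.36 (SE 0.51, edgeR adjusted p = 0.179) and 0.79 (SE 0.37, adjusted p = 0.286).

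The values of both loci depended on the libraries that stood apart. With both of them left out (ADAR1 p110 replicate 1, GFP replicate 2), the log2 fold changes were 2.40 (edgeR adjusted p = 6.42e-05) for MIR3687 and 1.62 (1.28e-05) for MIR3648. Without GFP replicate 2 alone they were 2.14 (adjusted p = 0.0336) and 1.48 (0.00799), and without GFP replicate 1 they were 0.89 and 0.43, with no call. Without ADAR1 p110 replicate 2 the log2 fold change of MIR3687 was 1.00, also with no call, and without ADAR1 p110 replicate 1 it was 1.63 (adjusted p = 0.0394). The pair together reached 17.2, 35.0 and 26.4 CPM of raw library totals with ADAR1 p110, against 3.79, 21.7 and 10.0 with GFP. Ribosomal spacers exist in many near-identical copies, so where such reads were assigned is uncertain. How ribosomal RNA was depleted is not given in the sources used here, and the part of depletion in these values was not tested. Leaving out this pair and the MIR23A pair, the other 79 loci reached 26.4, 26.9 and 30.1 on that scale with ADAR1 p110 and 23.9, 26.3 and 23.8 with GFP.

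The other abundant loci did not pass the test. MIR621 (chromosome 13, 41384902 to 41384997), which overlaps an exon of the mitochondrial ornithine carrier gene SLC25A15 in GENCODE 44, had 4.0 ± 0.816 CPM with ADAR1 p110 and 3.57 ± 0.402 CPM with GFP (SD, n = 3 each). Its log2 fold change was 0.16 with an SE of 0.15, the smallest of the loci. AL662800.1, in an intron of PPP1R10, had 2.86 ± 0.662 CPM against 2.33 ± 0.235 CPM. MIR4292, in an intron of RABL6, had 1.29 ± 0.0342 CPM against 1.28 ± 0.189 CPM, a log2 fold change of 0.01 (SE 0.17). MIR616, in an intron of the stress-response factor gene DDIT3, had 0.653 ± 0.132 CPM against 0.631 ± 0.0574 CPM, and MIR590, in EIF4H, 0.523 ± 0.154 CPM against 0.514 ± 0.0635 CPM. The libraries of the groups overlapped at each of these loci. MIR3153, in the cell cycle gene CKS2, had 0.948, 1.3 and 1.60 CPM with ADAR1 p110 and 0.657, 0.799 and 1.04 CPM with GFP, which overlap, and did not pass (log2 fold change 0.62, SE 0.24, edgeR adjusted p = 0.195).

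The MCM7 cluster encodes relatives of the miR-17 family that promote cell cycle entry. MIR25 (chromosome 7, 99691183 to 99691266, minus strand) had 0.935, 0.863 and 1.36 CPM with ADAR1 p110 and 0.991, 0.538 and 0.671 CPM with GFP. MIR106B had 0.387 ± 0.126 CPM against 0.377 ± 0.0866 CPM, and MIR93 0.209 ± 0.145 CPM against 0.176 ± 0.057 CPM (SD, n = 3 each). All 3 overlapped between groups, with log2 fold changes of 0.51, 0.05 and 0.30 for MIR25, MIR106B and MIR93. MCM7 itself, a subunit of the replicative helicase, had a log2 fold change of 0.13 (edgeR adjusted p = 0.286), and it was called with both libraries that stood apart left out (0.14, adjusted p = 0.023). Per 100 MCM7 counts there were 0.316, 0.264 and 0.412 MIR25 counts with ADAR1 p110 and 0.336, 0.197 and 0.221 with GFP. MIR17HG, the host of the related MIR17 cluster, had 5.79 ± 0.246 CPM against 4.8 ± 0.338 CPM, without overlap, and did not pass (edgeR adjusted p = 0.136).

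No locus of the let-7 family passed the test. MIRLET7D (chromosome 9, 96941116 to 96941202) had 10, 14 and 26 counts with ADAR1 p110 and 42, 20 and 20 with GFP (log2 fold change -0.67, SE 0.47). MIRLET7I (chromosome 12, 62997466 to 62997550) had 12, 34 and 28 counts against 23, 14 and 10 (0.65, SE 0.45). MIRLET7A2, in MIR100HG, had 18, 11 and 8 counts against 14, 13 and 19 (-0.26). MIRLET7A1 was not tested, with 2, 10 and 8 counts against 15, 2 and 14. The groups overlapped at all 4 loci and none was called, with signs in both directions.

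The other microRNA lists held few of the 83 loci. Their rows at 0 stand beside 2257 of all 3043 miRNA rows with no count in any library. In a list of 40 microRNA genes linked to tumour growth or to epithelial-mesenchymal transition, 27 were matched, 9 of these were at 0 in every library, and 6 belonged to the 83 loci, namely the 3 MCM7 loci, MIRLET7A1, MIRLET7D and MIRLET7I. None of its 5 tested loci was called, and their median log2 fold change was 0.30. In a list of 14 microRNA genes linked to NF-kappaB, 11 were matched, 7 of them were at 0 in every library, and MIR221, which represses the cell cycle inhibitor CDKN1B, was the only one among the 83 loci. MIR221 had 15, 18 and 12 counts with ADAR1 p110 and 11, 17 and 17 with GFP (log2 fold change 0.02, SE 0.40). In a list of 23 microRNA genes with reported editing of their primary transcript, 15 were matched and 8 were at 0 in every library. The 2 that belonged to the 83 loci were MIR27A and MIR589. MIR589 had 0.370 ± 0.137 CPM against 0.293 ± 0.137 CPM with no call. It lies in an intron of FBXL18, with 2.28, 1.26 and 1.45 counts per 100 host counts with ADAR1 p110 and 1.61, 0.635 and 1.64 with GFP. MIR21, MIR31 and MIR34A were at 0 in every library. MIR21 lies within the span of VMP1 on the same strand, which had 248 CPM with ADAR1 p110 and 214 CPM with GFP. MIR34A lies within MIR34AHG, with 2.42 and 2.70 CPM, while MIR31HG, which spans MIR31, was at 0 in every library. A 0 at a locus therefore does not show that its host was silent.

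Other loci with fewer reads did not pass. MIR33B (chromosome 17, 17717150 to 17717245, minus strand) lies in an intron of SREBF1, which encodes a sterol-responsive activator of lipid synthesis, and miR-33b itself represses cholesterol export through ABCA1. It met the count rule through the ADAR1 p110 libraries alone, so its values are given as a description. It had 16, 18 and 11 counts with ADAR1 p110 and 0, 4 and 9 with GFP (log2 fold change 1.81, SE 0.68, edgeR adjusted p = 0.179). SREBF1 rose to 156 ± 3.23 CPM with ADAR1 p110, against 121 ± 0.580 CPM with GFP (log2 fold change 0.37, SE 0.05, edgeR adjusted p = 0.0010). For every 100 SREBF1 counts there were 0.138, 0.115 and 0.0908 MIR33B counts with ADAR1 p110 and 0, 0.0454 and 0.0760 with GFP. MIR2278 (chromosome 9, 97572244 to 97572339), in an intron of C9orf3 as MIR27B is, had 30, 23 and 17 counts against 5, 14 and 5 (1.54, SE 0.54, adjusted p = 0.152). C9orf3, a peptidase gene, had 86.6 ± 1.95 CPM against 81.8 ± 2.22 CPM, without overlap, and did not pass (adjusted p = 0.430).

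On the lower side, AC006953.1 (chromosome 19, 44167328 to 44167426) lies in PLAUR, the urokinase receptor gene, and had 7, 3 and 10 counts with ADAR1 p110 against 18, 20 and 16 with GFP (log2 fold change -1.38, SE 0.53, edgeR adjusted p = 0.184). PLAUR fell to 108 ± 5.0 CPM, against 143 ± 5.61 CPM with GFP (log2 fold change -0.41, edgeR adjusted p = 0.00151). MIR4260 (chromosome 1, 209796789 to 209796855) overlaps an exon of LAMB3, a laminin chain gene, and had 14, 9 and 14 counts against 29, 16 and 33 (-0.99, SE 0.40, adjusted p = 0.209). LAMB3 fell to 558 ± 24.1 CPM, against 732 ± 38.6 CPM with GFP (-0.39, adjusted p = 0.00254). AL662890.3 (chromosome 6, 28763749 to 28763812), in no other gene, had 16, 29 and 16 counts against 37, 56 and 33 (-1.07, SE 0.38, adjusted p = 0.152). MIR3177, in MAPK8IP3, had 2, 15 and 1 counts against 15, 17 and 5 (-1.09, SE 0.78), with overlap. Over all tested loci the groups did not overlap at 11, or 14.7%, with ADAR1 p110 above at 8 and below at 3, while they did not overlap at 24.0% of all tested genes. The 49 tested loci outside the naming rule had log2 fold changes from -0.56 to 0.88 with a median of 0.13, and none had an unadjusted p under 0.05.

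The 62 loci inside a gene on their strand had 58 different hosts, 57 of which were tested, and 4 rose and 5 fell, or 15.8%, against 4.91% of all tested genes called. Hosts entered only through reads on a locus inside them, and these shares were not matched for level or SE, on which calls depend. The difference therefore cannot be read as a trait of microRNA hosts. The hosts that rose were SREBF1, PLEC (log2 fold change 0.41), which encodes the cytoskeletal linker plectin, FAM83H (0.47) and WNT9A (0.28), a secreted signal. Those that fell were PLAUR, LAMB3, SVIL (-0.36), which encodes the actin-binding protein supervillin, the signalling adaptor gene TRAF2 (-0.25) and the transcription factor gene ATF2 (-0.23). The median log2 fold change of the tested hosts was -0.02. Among the 9 loci in these hosts, described here because of them, 6 had an estimate of the same sign as the host, among them MIR661 in PLEC (0.79) and MIR4664 in FAM83H (0.70), which did not pass. Those 6 include MIR5008 in WNT9A, whose estimate of 0.01 (SE 0.77) lies at 0 within its error, and MIR33B, which met the count rule through 1 group. The signs were opposite at MIR604 in SVIL (0.48), MIR4479 in TRAF2 (0.54) and MIR933 in ATF2 (0.87), none of which passed. Over all 57 pairs with both members tested, the sign was shared in 34.

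**Figure D4:**
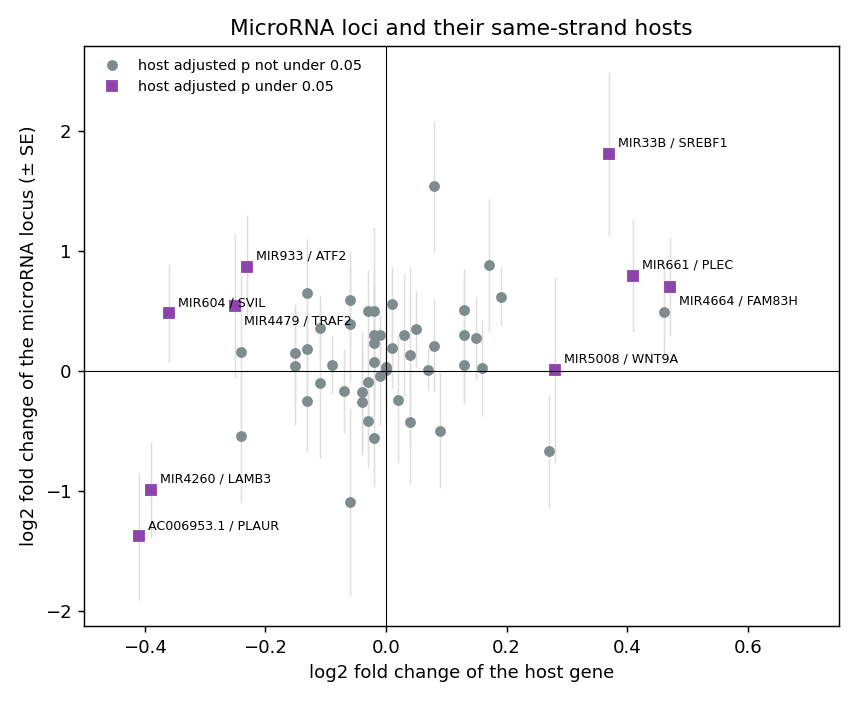
Log2 fold change of the microRNA locus with its SE (vertical axis) against that of its same-strand host gene (horizontal axis) for 57 pairs, with purple squares for hosts whose adjusted p was under 0.05. Hosts lie between -0.41 and 0.47 while loci lie between -1.38 and 1.81, and of the 9 loci in called hosts 6 have the sign of the host.

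Among genes that process microRNAs, 1 call was made. Of 26 tested genes on a list of 27, SMAD3, a signalling protein that also binds primary microRNAs, fell, with 101 ± 4.81 CPM against 120 ± 1.31 CPM (SD, n = 3 each, log2 fold change -0.25, edgeR adjusted p = 0.0206), and none rose. Among all tested genes 2.96% were called lower. That call was lost when any library but ADAR1 p110 replicate 1 was left out, with adjusted p from 0.0648 to 0.114. The Microprocessor genes DROSHA and DGCR8 had log2 fold changes of -0.04 and 0.02, and DICER1 had 89.7 ± 12.1 CPM against 107 ± 8.17 CPM (-0.26, adjusted p = 0.152). The list median was -0.04.

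Named host transcripts of microRNAs gave 3 higher and 1 lower genes of 40 tested, against 1.95% higher and 2.96% lower of all tested genes, with a median log2 fold change of 0.10. These shares were not matched for level either. The one that fell, MIR3142HG, is the host of MIR3142 and of the NF-kappaB-induced miR-146a, and its values led to its choice here. It had 28, 72 and 69 counts with ADAR1 p110, against 372, 234 and 294 with GFP, far apart (log2 fold change -2.39, SE 0.26, edgeR adjusted p = 0.00035). MIR3142 itself had 1, 0 and 0 counts against 2, 1 and 6 and stayed outside the rule, and MIR146A was not analysed here. Those that rose were SREBF1, PANK1 (0.26), the pantothenate kinase gene that hosts MIR107, and CASC10 (0.43), the last 2 picked after their values were seen.

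At the edge of the rule, the third-highest count was 10 at AC020915.1, AL359955.1 and MIR3191 and 9 at MIR4731, MIR644A and MIR98. These were taken from ties by order of name, and MIR491, MIR4737, MIRLET7A1 and Z95704.1 also had a third-highest count of 10. MIR3191 had 5, 11 and 9 counts with ADAR1 p110 and 8, 16 and 10 with GFP. MIR98, a let-7 relative just outside, had 11, 9 and 13 against 5, 9 and 2.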

How the data were processed

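Total RNA libraries of 3 ADAR1 p110 and 3 GFP samples were compared, with groups and replicate numbers from the titles. The values are raw counts per gene, which the authors deposited in 1 table. The submitters' processing notes name hg19, STAR 2.5.2a (an aligner), featureCounts 1.5.1 (a read counter), DESeq2 1.4.5 and R 3.1. Per the labels' protocols a stranded total RNA kit was used. Strand, multiple alignment and ambiguous-read settings were not stated in these sources, so reads shared by a locus and an overlapping gene may be split unevenly. The members and lists were chosen with earlier results of these data known.

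All genes passing filterByExpr (minimum count 10) were fitted in edgeR 4.0.16 (TMM, glmQLFit and glmQLFTest, group as the only term) in R 4.3.3, with Benjamini-Hochberg adjustment over all 18899 genes and 0.05 as threshold. CPM use all TMM-scaled counts. The SE is the log2 fold change divided by the root of F. A host is the gene on the same strand whose span holds the locus, with the highest CPM where there are several. The tests were run on simulated counts with a biological coefficient of variation of 8% at every gene and no library standing apart. That run does not show how they perform on libraries as uneven as these. Alternatives used DESeq2 1.42.0, limma 3.58.1, other scalings and filters, a replicate block and left-out libraries. Replicates differed by chi-square values of 7.94 to 35.4 per degree of freedom, so none was the same library sequenced again. Separate libraries from 1 culture would not be told apart by these values. Named loci were those called, the 12 with most CPM, those on 4 microRNA lists, the 5 largest changes each way, their hosts and cluster partners, 3 loci on each side of the count rule, and called processing genes. Overlaps with exons used GENCODE 44 and figures matplotlib 3.10.9.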

Additional observations from a re-analysis of the deposited data

How the results depend on the processing

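Of 616 values of 44 named genes under 14 alternatives, 588 neither lost nor gained a call, 12 lost a call, 16 gained one and 0 called values reversed. Most of these genes were called in no fit, so the 588 do not show a stable direction. MIR589 went from 0.30 to -0.35 without ADAR1 p110 replicate 1 and GFP replicate 2. DESeq2 gave no adjusted p for some loci, MIR106B, AL662890.3, MIR4260 and MIR5188 among them, and could not call these. The number of microRNA loci called higher was 4 with no low-count filter, 1 with limma-voom and 5 with both libraries that stood apart left out, and 1 to 3 when each library was left out in turn. MIR27A was in every one of these sets, and the loci added were MIR3687 and MIR3648 and, without both libraries, MIR4449. No alternative called a locus lower, which DESeq2 could not do at the loci without an adjusted p. A count rule of 5 or of 50 left the 2 calls in place. That outcome was fixed in advance, since the rule does not alter the fit and both loci meet either rule.

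All genes called higher were 742 with no filter, 591 with DESeq2, 175 with the replicate block and 1181 without both libraries, and 100 to 795 with 1 library left out. Genes called lower were 333 with the replicate block, 1424 without both libraries and 296 to 1017 with 1 left out. Hosts called lower were 3 with the replicate block and 10 without both libraries, with 3 to 8 lower and 2 to 5 higher when 1 library was left out. Processing genes called lower were 3 with no filter, 0 with the replicate block, 5 without both libraries, where 1 was higher, and 0 to 4 with 1 left out. The median of the loci was 0.18 with library size alone, 0.14 with limma-voom, 0.15 with the replicate block and 0.17 without both libraries, and 0.10 to 0.26 with 1 left out. Among the fits with 1 library left out, the highest of each of these gene counts came without ADAR1 p110 replicate 1 and, for all genes, the lowest without GFP replicate 1. The causes were not tested. Deviations of same-numbered libraries from their group means had correlations of -0.109, -0.0296 and 0.0433, and those of differently numbered libraries ran from -0.143 to 0.161. These values show no pairing by number. With so few libraries, 2 of them standing apart, they cannot exclude it. With the replicate block MIR27A and MIR3687 were called and MIR23A was not (adjusted p = 0.0695).

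Depth also limits these results, since the median locus had 16.7 counts per library.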
